A study of Mus musculus with 4 samples.

Results

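Levels of 10 genes of arginine synthesis and polyamine metabolism were followed in cultured mouse neural stem cells with and without depletion of the nucleoporin Seh1. The genes were Slc7a1, Ass1, Asl, Arg2, Oat, Odc1, Azin1, Srm, Sms and Sat1, and all 10 were found by symbol among the 17621 genes of the deposited tables. They were chosen from measured values of these same libraries, with the high Ass1 ratio between genotypes already known, so all values of the members are given as a description and none was tested.

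Arginine enters cells through cationic amino acid transporters or is rebuilt from citrulline by argininosuccinate synthase and argininosuccinate lyase. Arginase turns it into ornithine, which ornithine aminotransferase can pass on towards glutamate and proline, or which ornithine decarboxylase can commit to putrescine. Spermidine synthase and spermine synthase then extend putrescine to the polyamines spermidine and spermine, cations that bind nucleic acids and are needed by growing cells, and an acetyltransferase starts their breakdown and export.

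The cells were primary neural stem cells from the cortex of newborn mice. Ctrl cells had the genotype Seh1 f/f, that is, floxed Seh1 alleles, and iKO cells the genotype cmv-cre-ert,seh1 f/f, which adds a recombinase of the inducible type that the label places with the CMV promoter. All 4 groups therefore carried the floxed alleles, and the recombinase was in the iKO groups alone. The labels used here give no inducer treatment, so effects of the recombinase or of an inducer cannot be told apart from those of Seh1 loss. Day 0 cells were in growth medium with EGF and bFGF, and day 3 cells were in differentiation medium without both. The medium held N-2 and B27 supplements on plates coated with laminin and poly-L-ornithine. N-2 is known to contain putrescine, a product of the pathway described here.

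Each group was 1 library, with 19611748 to 21040586 counts, so replicates are lacking throughout and p-values are not given. Ranges in parentheses are 95% intervals that cover counting error alone. Levels are CPM, the count scaled to library size with TMM, or deposited FPKM where genes are compared with each other, since FPKM takes transcript length into account. Calls of higher or lower need a 2-fold difference or more in CPM + 1. They were made over the 12976 genes that averaged 1 CPM or above. Seh1l was at 40.3 CPM in Ctrl against 19.2 CPM in iKO at day 0, then at 33.2 and 11.0 CPM at day 3. In these bulk samples, fewer cells of a type and less RNA per cell cannot be told apart.

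The upstream sequences of 3 members are shown first, 250 bases before the start site and 5′ to 3′ on the gene's strand, from RefSeq on GRCm38.p6. The RefSeq table held such windows for 6 of the 10 members, 8 windows in all. Ass1 and Sms are shown because their windows, and no others of the 8, hold CACGTG, the E-box core bound by Myc and related factors. Slc7a1 is shown because its counts moved between transcript models and it has 2 annotated start sites with unlike upstream sequence. Capitals mark CACGTG and GGGCGG (a GC box, or its complement) and TATAAA. The windows lie at chr2:31470020-31470269 (plus strand) for Ass1 and chrX:157492288-157492537 (minus strand) for Sms. For Slc7a1 they lie at chr5:148399905-148400154 for the distal start and chr5:148392816-148393065 for the start inside the gene, both on the minus strand.
Ass1: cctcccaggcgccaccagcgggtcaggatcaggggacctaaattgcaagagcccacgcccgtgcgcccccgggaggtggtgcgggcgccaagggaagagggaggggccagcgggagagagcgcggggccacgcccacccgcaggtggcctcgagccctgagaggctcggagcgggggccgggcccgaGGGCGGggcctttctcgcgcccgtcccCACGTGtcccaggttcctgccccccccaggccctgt
Sms: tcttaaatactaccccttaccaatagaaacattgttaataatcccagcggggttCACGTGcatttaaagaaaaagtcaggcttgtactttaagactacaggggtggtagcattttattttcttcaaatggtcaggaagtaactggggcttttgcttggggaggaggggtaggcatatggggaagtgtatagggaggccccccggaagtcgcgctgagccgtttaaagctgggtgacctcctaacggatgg
Slc7a1 distal start: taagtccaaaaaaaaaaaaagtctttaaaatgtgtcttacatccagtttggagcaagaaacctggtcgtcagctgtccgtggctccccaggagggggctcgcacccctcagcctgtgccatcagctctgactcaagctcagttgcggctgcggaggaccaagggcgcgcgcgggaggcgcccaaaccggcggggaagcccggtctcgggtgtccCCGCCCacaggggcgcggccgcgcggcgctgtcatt
Slc7a1 internal start: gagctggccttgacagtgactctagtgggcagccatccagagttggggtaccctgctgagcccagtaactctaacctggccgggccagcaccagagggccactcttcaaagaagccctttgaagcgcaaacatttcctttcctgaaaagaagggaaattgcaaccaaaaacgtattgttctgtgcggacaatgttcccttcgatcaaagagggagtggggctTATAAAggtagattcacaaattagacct

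The Ass1 window is rich in GC, at 75.6% against a median of 52.4% over all 32851 windows. Its CACGTG begins at -36 and its GGGCGG at -63 from the start site. In Sms the CACGTG begins at -196 of the more distal of 2 annotated starts, in sequence of 47.2% GC. CACGTG was found on either strand in 2 of the 8 member windows and in 6.02% of all windows of this length. GGGCGG was found in 5 of the 8 member windows, against 32.7% of all. The Odc1 window had 4 matches, and so did the window of the other Sms start, which is not shown and has 75.2% GC. The distal Slc7a1 window has 1 GC box at -36 and no TATAAA, and the internal one has no GC box and has TATAAA at -28, a motif present in 12.4% of all windows. TGACGTCA, the cyclic AMP response element, was in none of the 8 windows and in 1.55% of all. CCAAT was in 2 of the 8, Oat and Sms, and in 33.8% of all. These matches describe the letters of the windows and not bound sites.

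Among the 4 members that supply or use arginine, Ass1 and Slc7a1 differed more between genotypes than Asl, and Arg2 had too few counts to compare. Slc7a1 (gene ID 11987, chr5:148327410-148399904, GRCm38) encodes CAT1, the main cationic amino acid transporter of many dividing cells. It was at 172 CPM in Ctrl against 101 CPM in iKO at day 0, then at 32.7 CPM in Ctrl against 66.3 CPM in iKO at day 3. The order of the genotypes was thus opposite at the 2 days. At day 0 iKO was 1.71-fold lower (1.62 to 1.80) and at day 3 it was 2.02-fold higher (1.84 to 2.23). Its day 3 log2 ratio of 0.996 lay just under the 2-fold threshold, which it passed with a pseudocount of 0.1 CPM (1.02) and with DESeq2 size factors (1.00). Between the days it was 5.26-fold lower at day 3 in Ctrl (4.84 to 5.73) and 1.52-fold lower in iKO (1.42 to 1.63). Its level in deposited FPKM followed the same order, with 23.1, 14.9, 4.60 and 8.86 FPKM for Ctrl and iKO at day 0 and Ctrl and iKO at day 3.

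The Slc7a1 counts were also divided differently among 3 RefSeq transcript models. The model NM_001301424.1 held 1626 expected counts in Ctrl and 1601 in iKO at day 0, but 0.76 in Ctrl and 604 in iKO at day 3. The model NM_007513.4 held 1701 and 598 at day 0, and 657 and 646 at day 3. As shares of the gene, the first model took 46.4% in Ctrl and 72.8% in iKO at day 0, then 0.115% in Ctrl and 48.3% in iKO at day 3. The third model had 174 counts in Ctrl at day 0 and 0 in the other libraries. The difference in the gene's day 3 total was therefore carried by the first model, while the second had nearly equal counts in the genotypes. When only the most abundant model of each gene was used, the day 3 log2 ratio of iKO to Ctrl became 4.98 and that at day 0 became -0.12, in place of 1.00 and -0.77. From day 0 to day 3 the Ctrl value became -6.27 and the iKO value -1.17, in place of -2.36 and -0.60. The lower level in iKO at day 0 thus lay in the other models. These divisions are the authors' estimates and no source used here says how they were made. Which start site each model uses was not analysed here.

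**Figure D1:**
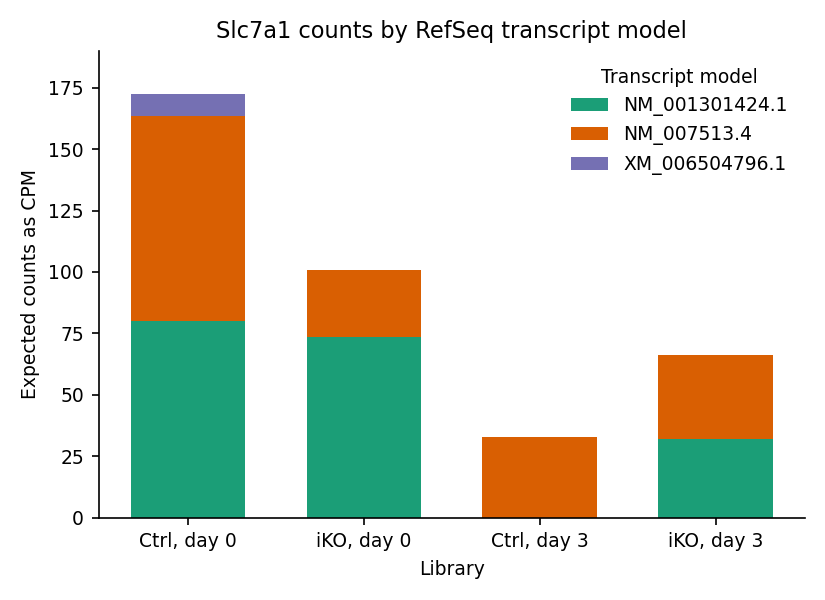
Expected counts of Slc7a1 as CPM (y axis) in each of the 4 libraries (x axis), stacked by RefSeq transcript model. The total is highest in Ctrl at day 0 (172 CPM) and lowest in Ctrl at day 3 (32.7 CPM), where NM_001301424.1 is almost absent.

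Ass1 (gene ID 11898, chr2:31470270-31520670) encodes argininosuccinate synthase, which joins citrulline and aspartate and limits the rate of arginine rebuilding. It was at 2.95 CPM in Ctrl against 41.9 CPM in iKO at day 0, then at 0.448 CPM in Ctrl against 19.2 CPM in iKO at day 3. In whole counts these were 60, 913, 9 and 362. Both iKO libraries were thus above both Ctrl libraries, and within each genotype the day 3 library was the lower one. The ratio of iKO to Ctrl was 14.2 (10.9 to 18.8) at day 0 and 42.9 (22.3 to 94.5) at day 3. Ass1 ranked 2 at day 0 and 3 at day 3 from the top of the 12976 log2 ratios. From day 0 to day 3 it was 6.59-fold lower in Ctrl (3.25 to 15.1) and 2.18-fold lower in iKO (1.93 to 2.47). The Ctrl day 3 value rests on 9 counts, and its log2 ratio to day 0 was -1.45 with a pseudocount of 1 CPM and -0.55 with one of 5 CPM. With the larger pseudocount the iKO value between the days also came under 2-fold, at -0.96 in place of -1.09. The gene has 1 transcript model in the files, so no division among models enters its counts. In the authors' deposited tables, Ass1 was the only member listed at either day, with a log2 ratio of iKO to Ctrl of 3.96 at day 0 and 5.35 at day 3.

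Asl (gene ID 109900, chr5:130011258-130024381), the lyase that completes the step after Ass1, did not share the size of its difference. Its levels were 8.85 CPM in Ctrl against 10.3 CPM in iKO at day 0, then 9.30 and 13.3 CPM at day 3. The iKO library was 1.17-fold higher at day 0, with an interval that holds 1 (0.954 to 1.43), and 1.42-fold higher at day 3 (1.17 to 1.73). Per length, the balance of the pair was turned round between genotypes. Ass1 stood at 0.321 of the Asl FPKM in Ctrl and at 3.93 times Asl in iKO at day 0, then at 0.0488 and 1.41 at day 3.

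Arg2 (gene ID 11847, chr12:79130788-79156301), the mitochondrial arginase, was close to the limit of detection. It had 3 counts in Ctrl and 5 in iKO at day 0, then 9 and 12 at day 3, which is at most 0.636 CPM. It was the one member under the minimum of 1 CPM and entered no count of calls. Its ratio of iKO to Ctrl of 1.55 at day 0 had an interval of 0.302 to 10, and that of 1.42 at day 3 one of 0.549 to 3.82, so a difference was not detectable at this depth. The cytosolic arginase gene Arg1 had 3, 0, 1 and 0 counts in the same libraries. Otc, Cps1 and Nags, which complete the urea cycle in liver, each had a mean under 1 CPM, so Ass1 and Asl were the only 2 of the 7 genes of that list above the minimum.

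**Figure D2:**
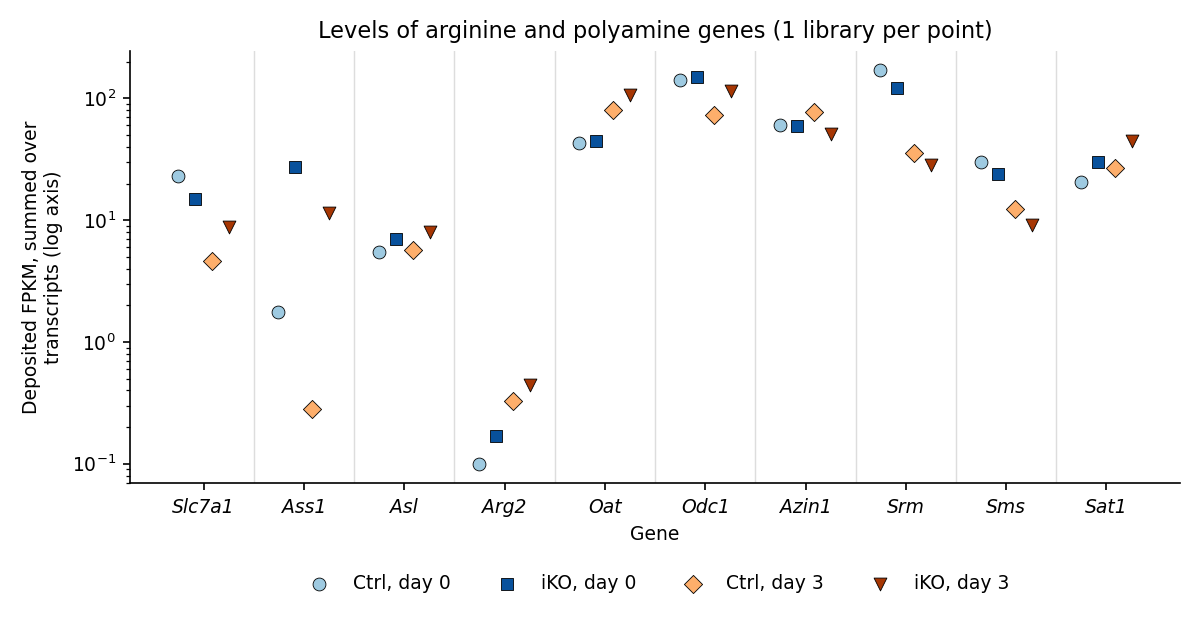
Deposited FPKM summed over transcripts (y axis, log scale) for the 10 genes (x axis), 1 point per library. Ass1 spans the widest range, from 0.28 FPKM in Ctrl at day 3 to 27.3 FPKM in iKO at day 0, and Arg2 stays at or below 0.44 FPKM.

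The transcripts of the enzymes that use ornithine, Odc1 and Oat, were close between genotypes at day 0 and higher in iKO at day 3. Odc1 (gene ID 18263, chr12:17544808-17551502) encodes ornithine decarboxylase, the first and rate-limiting enzyme of polyamine synthesis. It was at 371 CPM in Ctrl against 359 CPM in iKO at day 0, then at 184 CPM in Ctrl against 307 CPM in iKO at day 3. The low value was that of Ctrl at day 3, and the other 3 libraries lay closer together. At day 0 iKO was 1.03-fold lower (1.00 to 1.07), and at day 3 it was 1.68-fold higher (1.61 to 1.75). The day 0 direction was not stable, since the log2 ratio of -0.05 became 0.08 both with library totals and with deposited FPKM. In Ctrl, day 3 was 2.02-fold below day 0 (1.95 to 2.11), and in iKO it was 1.17-fold below (1.13 to 1.21). The Ctrl difference stood at the threshold, with a log2 ratio of -1.01 that was -0.94 with library totals, -0.93 with deposited FPKM, and that also came just under 2-fold when the pseudocount was 5 CPM.

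Oat (gene ID 18242, chr7:132557475-132576398), ornithine aminotransferase of the mitochondrion, was higher after differentiation in both genotypes. Its levels were 95.4 CPM in Ctrl against 90.3 CPM in iKO at day 0, then 169 and 240.5 CPM at day 3. Both day 3 libraries were above both day 0 libraries. Day 3 was 1.77-fold above day 0 in Ctrl (1.67 to 1.87) and 2.66-fold in iKO (2.53 to 2.81). The ratio of iKO to Ctrl was 0.946 at day 0, with an interval that holds 1 (0.888 to 1.01), and 1.42 at day 3 (1.36 to 1.49). The day 0 log2 ratio of -0.08 became 0.05 with library totals or deposited FPKM. In FPKM, Odc1 was 3.28 times Oat in Ctrl and 3.36 times in iKO at day 0, then 0.917 and 1.08 times at day 3, so the 2 ornithine users came to similar levels in both genotypes.

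Azin1 (gene ID 54375, chr15:38487430-38519294) encodes antizyme inhibitor, a relative of ornithine decarboxylase without its activity that frees the enzyme from antizyme. It was at 259 CPM in Ctrl against 232 CPM in iKO at day 0, then at 317 and 222 CPM at day 3. The highest library was Ctrl at day 3, the same library that was lowest for Odc1. The iKO library was 1.12-fold lower at day 0 (1.07 to 1.16) and 1.42-fold lower at day 3 (1.37 to 1.48). Per length, Odc1 was 2.32 times Azin1 in Ctrl and 2.51 times in iKO at day 0, 0.947 times in Ctrl at day 3 and 2.27 times in iKO at day 3. Of its 4 transcript models, 1 held between 75.0% and 84.0% of the counts in every library.

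The enzymes that extend putrescine were lower at day 3 in both genotypes and lower in iKO at both days. Srm (gene ID 20810, chr4:148591513-148594619), spermidine synthase, was at 231 CPM in Ctrl against 151 CPM in iKO at day 0, then at 45.7 and 39.0 CPM at day 3. It was 5.05-fold lower at day 3 in Ctrl (4.71 to 5.43) and 3.88-fold lower in iKO (3.58 to 4.20). Between genotypes, iKO was 1.53-fold lower at day 0 (1.46 to 1.60) and 1.17-fold lower at day 3 (1.06 to 1.29). At day 0 Srm had the highest FPKM of the members in Ctrl, 169.8, and at day 3 it was the fourth in Ctrl and the fifth in iKO.

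Sms (gene ID 20603, chrX:157443851-157492287), spermine synthase, had the same order of libraries, with smaller differences between the days than Srm. Its levels were 106 CPM in Ctrl against 77.4 CPM in iKO at day 0, then 41.2 and 32.7 CPM at day 3. It was 2.57-fold lower at day 3 in Ctrl (2.37 to 2.78) and 2.37-fold lower in iKO (2.16 to 2.60). The iKO library was 1.37-fold lower at day 0 (1.28 to 1.46) and 1.26-fold lower at day 3 (1.14 to 1.40). In FPKM, Srm was 5.67 times Sms in Ctrl and 5.08 times in iKO at day 0, then 2.89 and 3.12 times at day 3. The step from Srm to Sms thus narrowed with differentiation in both genotypes.

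Sat1 (gene ID 20229, chrX:155213126-155216449) encodes spermidine/spermine acetyltransferase, the enzyme that opens polyamine breakdown, and was the member of the polyamine genes that was higher in iKO at both days. It was at 24.5 CPM in Ctrl against 32.8 CPM in iKO at day 0, then at 30.7 and 54.2 CPM at day 3. Ctrl at day 0 was the lowest library and iKO at day 3 the highest. The iKO library was 1.34-fold higher at day 0 (1.19 to 1.50) and 1.76-fold higher at day 3 (1.59 to 1.95), and day 3 was 1.26-fold above day 0 in Ctrl (1.11 to 1.42) and 1.65-fold in iKO (1.50 to 1.82). Its second transcript model, NM_001291865.1, held 7.09% of the counts in Ctrl and 8.86% in iKO at day 0, then 14.2% and 10.4% at day 3. In FPKM, Srm was 8.31 times Sat1 in Ctrl and 4.07 times in iKO at day 0, then 1.32 and 0.637 times at day 3, so that iKO at day 3 was the only library in which Sat1 stood above Srm.

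**Figure D3:**
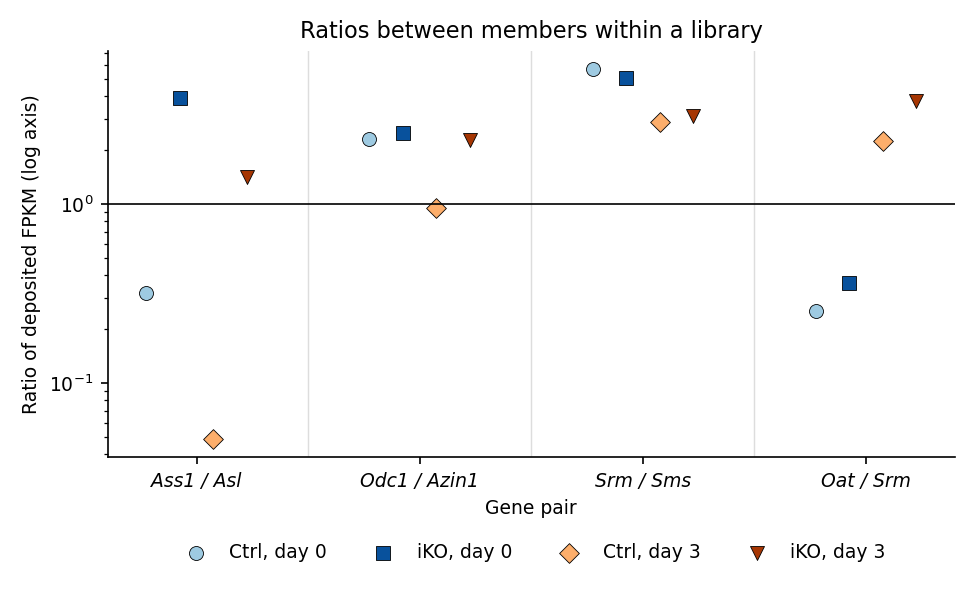
Ratio of the deposited FPKM of 2 genes within a library (y axis, log scale) for 4 pairs (x axis), 1 point per library, with the line at 1. Ass1 to Asl separates the genotypes, Srm to Sms and Oat to Srm separate the days, and Odc1 to Azin1 is lowest in Ctrl at day 3 (0.947).

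Set side by side, the 9 members above the minimum were counted against all genes. For iKO against Ctrl at day 0, 1 of 9 was higher, Ass1, and none was lower, where 2.67% of all genes were higher and 0.331% lower. The median log2 ratio of the members was -0.08, and that of all genes -0.06. At day 3, 1 of 9 was again higher, Ass1, and none lower, against 6.27% and 4.76% of all genes, and the members' median was 0.51 against -0.01. At 6 of 9 members the day 3 interval lay above 1 and at 3, Azin1, Srm and Sms, below 1. At day 0 the intervals of Ass1 and Sat1 lay above 1, those of Slc7a1, Odc1, Srm, Sms and Azin1 below 1, and those of Asl and Oat held 1. Such intervals leave out variation between cultures, and most of these differences are under 2-fold. The share of all genes with an interval wholly above or below 1 was not counted, so the interval counts stand without a background. The Ass1 ratio was known when the members were chosen, so nothing is read from these counts.

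**Figure D4:**
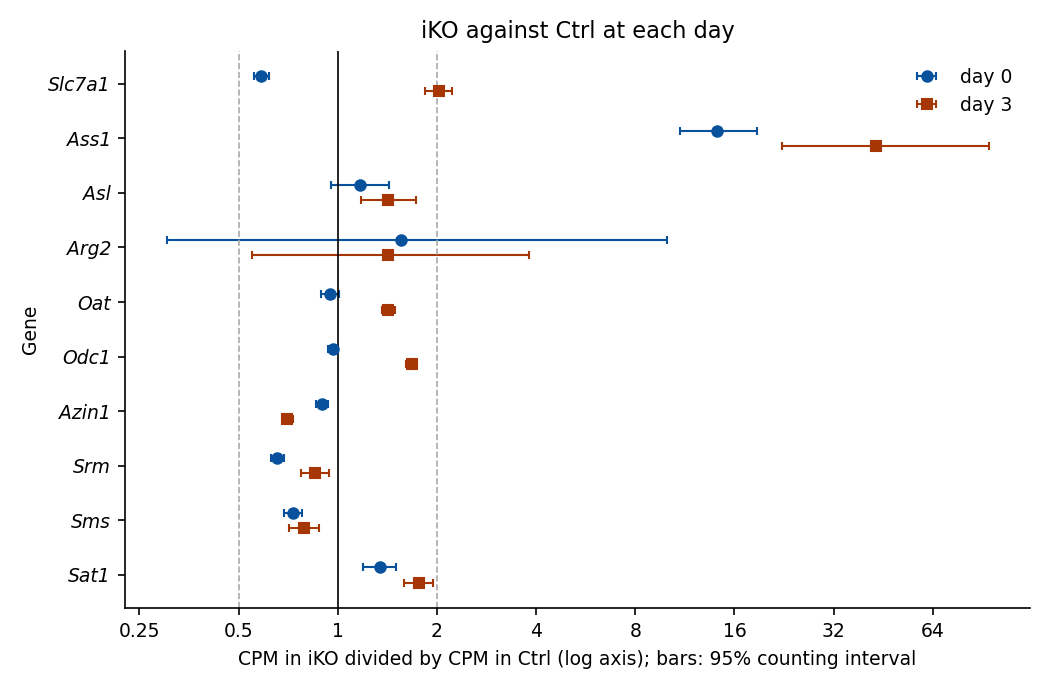
CPM in iKO divided by CPM in Ctrl (x axis, log scale) for the 10 genes (y axis) at day 0 and day 3, with 95% counting intervals as bars, a solid line at 1 and dashed lines at 2-fold. Ass1 lies beyond 2-fold at both days (14.2 and 42.9), and Slc7a1 lies below 1 at day 0 (0.586) and above it at day 3 (2.02).

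From day 0 to day 3 in Ctrl, 5 of 9 members were lower (Ass1, Slc7a1, Odc1, Srm and Sms) and none was higher, where 15.1% of all genes were lower and 14.6% higher. The members' median log2 ratio was -1.01 and that of all genes -0.02. With a pseudocount of 5 CPM, 3 of 9 were lower. In iKO, 3 of 9 were lower (Ass1, Srm and Sms) and 1 was higher (Oat), against 11.4% and 11.2% of all genes, with medians of -0.22 and -0.01. With deposited FPKM, 904 of 11934 genes were higher and 1447 lower in this comparison, in place of 1459 and 1485 of 12976. Slc7a1 and Odc1 were called in Ctrl and not in iKO, in which they were lower at day 3 by less than 2-fold.

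**Figure D5:**
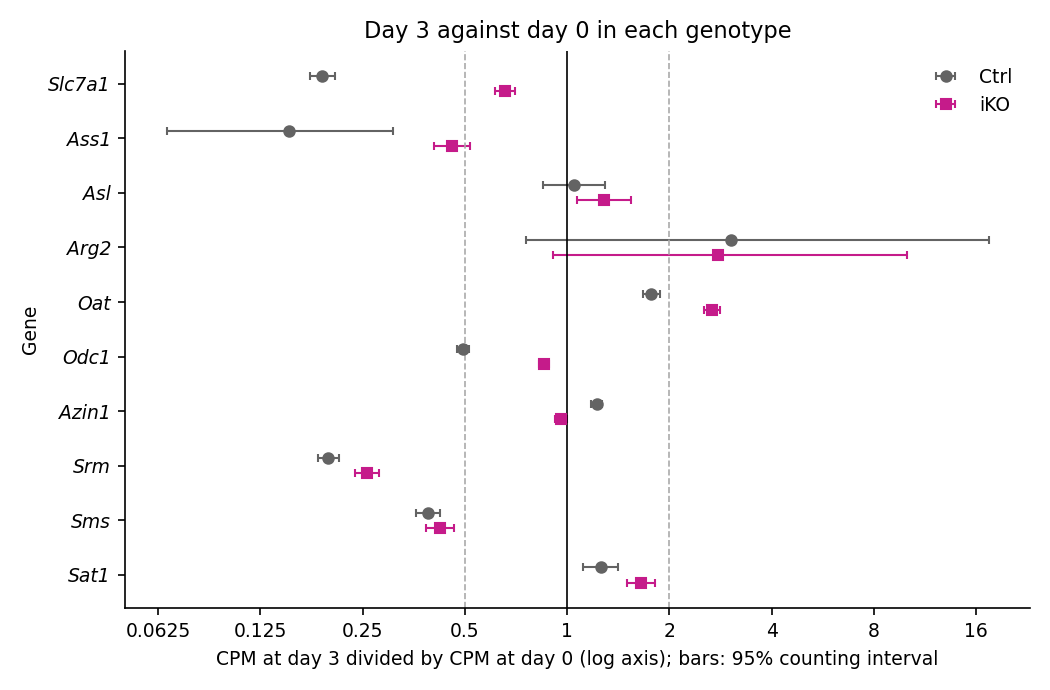
CPM at day 3 divided by CPM at day 0 (x axis, log scale) for the 10 genes (y axis) in Ctrl and in iKO, with 95% counting intervals as bars, a solid line at 1 and dashed lines at 2-fold. Srm and Sms lie below 0.5 in both genotypes, while Slc7a1 and Odc1 are lower in Ctrl (0.190 and 0.494) than in iKO (0.657 and 0.855).

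The log2 ratio of iKO to Ctrl at day 3 exceeded that at day 0 by at least 1 for 1 of 9 members and fell short of it by 1 or more for none, where 3.71% and 5.50% of all genes did so. That member was Slc7a1, with a difference of 1.76, which ranked 68 of 12976. The other differences were 0.79 for Odc1, 0.59 for Oat, 0.39 for Sat1, 0.38 for Srm, 0.36 for Ass1, 0.27 for Asl, 0.12 for Sms and -0.35 for Azin1. For Ass1 the value depends on the pseudocount, because Ctrl had 9 counts at day 3: without it the difference was 1.59 (0.57 to 2.62). No test of these differences is possible with 1 library per group, and the 2 ratios of a gene share no library.

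Other genes of the same pathways came from lists chosen by function with earlier results of these libraries known. In polyamine synthesis and its control, 4 genes other than the members were above the minimum. Azin2, a second antizyme inhibitor, was at 7.33 CPM in Ctrl against 20.6 CPM in iKO at day 0, 2.81-fold higher (2.33 to 3.41), and at 12.5 and 27.1 CPM at day 3, 2.17-fold higher (1.86 to 2.53). It thus stood opposite to Azin1 at both days. Amd1, which makes the donor of the aminopropyl groups that Srm and Sms transfer, was at 172 and 118 CPM at day 0 and at 93.7 and 103 CPM at day 3. The antizyme gene Oaz1 was 2.38-fold lower at day 3 in Ctrl (2.28 to 2.48), and its log2 ratio in iKO was -0.92. Amd2, a near copy of Amd1 in the genome, was under the minimum, and reads shared by such copies may be divided between them.

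In polyamine breakdown and transport, none of 7 genes, Sat1 among them, differed by 2-fold between genotypes. Of these, 6 lay above 0 at day 0 and 5 at day 3 (medians 0.39 and 0.52). Over all genes, 43.5% lay above 0 at day 0 and 48.7% at day 3. The list joins enzymes of breakdown with the transporter genes Atp13a2, Atp13a3 and Slc18b1, so its counts do not describe polyamine loss. Smox, spermine oxidase, was at 52.9 CPM in Ctrl against 94.2 CPM in iKO at day 0, then at 279 and 390.5 CPM at day 3. It was 5.28-fold higher at day 3 in Ctrl (4.95 to 5.64) and 4.15-fold higher in iKO (3.95 to 4.36), the opposite of Srm and Sms. Atp13a3, a polyamine transporter, was 2.37-fold lower at day 3 in Ctrl (2.26 to 2.48) and 1.69-fold lower in iKO (1.62 to 1.76).

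Among 10 measured transporters of arginine, ornithine and aspartate, 2 were higher and 1 lower in iKO at day 3, and none differed by 2-fold at day 0. The shares of all genes were 6.27% higher and 4.76% lower at day 3, and 2.67% and 0.331% at day 0. Slc7a2, which encodes the cationic amino acid transporter CAT2, was at 28.9 CPM in Ctrl against 30.9 CPM in iKO at day 0, then at 73.0 and 228 CPM at day 3, 3.12-fold higher (2.94 to 3.31). Slc3a2, the heavy chain that Slc7a5, Slc7a6 and Slc7a7 need at the membrane, was at 275 and 303 CPM at day 0 and at 209 and 982 CPM at day 3, 4.70-fold higher (4.55 to 4.87). Slc7a6, one of its light chains, was 3.11-fold lower at day 3 (2.69 to 3.61). Slc7a2 therefore read higher and Slc7a1 lower at day 3 than at day 0 in each genotype, while both were higher in iKO than in Ctrl at day 3.

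In the ornithine, proline and glutamate list, all 6 measured genes, Oat among them, lay above 0 at day 3 (median 0.55), and at day 0 2 lay above 0 and 4 below. None was called at either day. Aldh4a1, which makes glutamate from the product of proline and ornithine breakdown, was at 51.4 CPM in Ctrl against 102 CPM in iKO at day 0, then at 100.2 and 199 CPM at day 3, with log2 ratios of 0.97 and 0.99. Pycr1, which makes proline, was at 7.33, 6.74, 4.48 and 8.96 CPM in the order Ctrl and iKO at day 0, then Ctrl and iKO at day 3. Its day 3 values are 2-fold apart in CPM, with an interval of 1.54 to 2.61, but its log2 ratio with the pseudocount, 0.86, was under the threshold. Over the pathway lists together, with the Myc family included, 49 further genes were above the minimum, of which 2 were higher and 1 lower in iKO at day 0. At day 3, 3 were higher and 3 lower. The shares of all genes given above are 2.67% and 0.331% at day 0, then 6.27% and 4.76% at day 3, and nothing is read from these counts.

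The genes with a profile most like that of Ass1 and Odc1 were looked for by distance, over 4 libraries only. Nearest to Ass1 were Rpl34, Dcxr, Ckmt1, Perp and Prrg4, at Euclidean distances of 1.14 to 1.46 between log2(CPM + 1) profiles centred over the libraries. A profile this near to that of Ass1 has to be higher in both iKO libraries, so that direction follows from the choice. The day 0 log2 ratios of these genes were 2.58, 1.89, 1.81, 2.38 and 2.07, all below that of Ass1. Rpl34 has copies elsewhere in the genome, so its counts are uncertain. Nearest to Odc1 were Pdxk, Rab5if, Etv4, Mipep and Acat1, at distances of 0.0345 to 0.0979. Each profile has 4 points only, and how many genes share such a shape was not counted.

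Markers of cell types moved with the same comparisons. The summed level of 6 oligodendrocyte lineage markers was 239 CPM in Ctrl against 173 CPM in iKO at day 0, then 1059 and 146 CPM at day 3. At day 0, 4 of the 6 were at least 2-fold lower in iKO, against 0.331% of all genes, with a median log2 ratio of -1.15. The day 0 sums hold a large part from Cspg4, with 121 CPM of the Ctrl sum and 123 CPM of the iKO sum. At day 3, 6 of 6 were at least 2-fold lower in iKO, against 4.76% of all genes. The summed level of 5 astrocyte markers was 1536 and 2094 CPM at day 0 and 7179 and 7447 CPM at day 3. Of the day 3 sums, Slc1a3 made up 5788 CPM in Ctrl and 5834 CPM in iKO. Gfap, Aqp4 (388 and 767 CPM) and S100b were higher in iKO at day 3, and Aldh1l1 was lower (797 and 567 CPM). That of 5 neuronal markers was 1684 CPM in Ctrl against 904 CPM in iKO at day 3, of which Map2 made up 1459 and 871 CPM. Of the neuronal markers, only Stmn2, under 1 CPM in both, was higher in iKO. The part of the cell types in the values of the members was not tested. The summed level of 5 neural stem and progenitor markers lay between 4229 and 5666 CPM, with none at 0, but its genes moved apart. From day 0 to day 3, Nes went from 849 to 235 CPM in Ctrl and from 663 to 165 CPM in iKO, and Fabp7 from 1246 to 2368 CPM and from 1207 to 1367 CPM. Vim went from 2924 to 1125 CPM in Ctrl and from 3418 to 2156 CPM in iKO. It alone of the 5 was higher in iKO at both days. Microglial and macrophage markers summed to 1.91 to 8.81 CPM, with Ptprc at 0 in 3 libraries and Aif1 at 0 in 3. Endothelial markers summed to at most 2.33 CPM and fibroblast and mural markers to at most 16.1 CPM.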

How the data were processed

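RNA-seq of 4 libraries, 1 per group, was analysed from per-transcript tables of 55122 RefSeq transcripts. Groups were taken from the sample titles. HISAT, Bowtie2 and StringTie are named with mm10, per the submitters' processing notes, and no source used here says which tool counted. The deposited counts are expected counts, which carry decimals. Expression values deposited beside them have no unit in the header, and their relation to the counts is that of FPKM. The authors' deposited tables hold log2 ratios with an FDR (an adjusted p-value), per the file headers, each from 2 libraries and so without spread between cultures.

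For each of 17621 genes, the expected counts of its transcripts were added up and rounded. Library sizes were scaled by TMM (edgeR 4.0.16, R 4.3.3), with factors of 0.962 to 1.06. RefSeq on GRCm38.p6, the build that mm10 names, gave symbols and coordinates and held 17498 of the gene IDs. Log2 ratios used a pseudocount of 1 CPM and understate ratios of low genes. Printed folds are ratios of CPM without it, with exact conditional (Clopper-Pearson) 95% intervals from scipy 1.17.1. The interval of the difference between days is a normal approximation on the log scale. PCR reads are not independent molecules, so intervals cover counting error only. A minimum mean of 1 CPM left out 4645 genes. No test across conditions was run, because no group has a second library.

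The members and the 9 pathway and 7 marker lists were chosen with earlier results of these data known. The rule for other named genes took list members at least 2-fold apart in any comparison or nearest to that, and the 5 genes, of those averaging 5 CPM or above, nearest to Ass1 and to Odc1 in profile. Values are given for part of them. The values were also computed with pseudocounts of 0.1 or 5 CPM, a minimum of 5 CPM or none, library totals, DESeq2 1.42.0 size factors, TMM without ribosomal protein and histone genes, deposited FPKM, and the most abundant transcript of each gene alone.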

Additional observations from a re-analysis of the deposited data

Results flagged for a closer look

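The ratio of iKO to Ctrl lay on opposite sides of 1 at the 2 days for 2 members, beyond the counting interval at each day. How many of all genes did so was not counted. Slc7a1 was lower in iKO at day 0 and higher at day 3, with a difference of 1.76 between the log2 ratios. With the most abundant transcript model alone, its day 0 log2 ratio was -0.12 in place of -0.77, and the sign was kept. Odc1 was 1.03-fold lower in iKO at day 0 and 1.68-fold higher at day 3, with a difference of 0.79, and its day 0 side changed with library totals and with deposited FPKM. Neither difference was tested, since each rests on 4 libraries with 1 per group.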

How the results depend on the processing

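Each member value was recomputed under 9 settings. Of 324 values, 318 kept their sign and 9 crossed the 2-fold threshold in either direction. A change of the minimum leaves the ratio of a member as it is, and a change of the pseudocount cannot change a sign. The 36 values of each such setting therefore kept their sign by construction. The 6 that changed sign were Odc1 and Oat at day 0 under scaling by library totals or by deposited FPKM, and, with the most abundant transcript alone, Asl from day 0 to day 3 in Ctrl (-0.26 in place of 0.06) and Azin1 from day 0 to day 3 in iKO (0.03 in place of -0.06). No called value changed sign. Counts of called members were within 1.5 times of those given except as follows. At day 3 the count was 2, with Slc7a1 added to Ass1, with a pseudocount of 0.1 CPM, with DESeq2 size factors and with the most abundant transcript alone, where the Slc7a1 log2 ratio was 4.98. From day 0 to day 3 in Ctrl it was 3 with a pseudocount of 5 CPM. For the difference between days it was 2 with a pseudocount of 0.1 CPM.

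Over all genes, 390 were called at day 0 (347 higher and 43 lower), against 786 with a pseudocount of 0.1 CPM, 124 with one of 5 CPM and 932 with the most abundant transcript alone (597 higher and 335 lower). At day 3, 1431 were called, against 788 when the pseudocount was 5 CPM and 926 from deposited FPKM. The most abundant transcript alone covered 12651 genes and deposited FPKM 11934, in place of 12976, so these counts have unlike totals. A larger pseudocount shrinks ratios of low genes by construction, and the cause of the other changes was not tested. Library totals moved the median log2 ratio of all genes by 0.12 at day 0 and by -0.13 from day 0 to day 3 in iKO, and deposited FPKM moved them by 0.10 and -0.13. Depth limits Arg2 in all libraries and Ass1 in Ctrl at day 3 (9 counts). No paired analysis was possible because each group holds 1 library.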

Other observations

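The Myc family, whose products act on Odc1 and other growth genes, had 8 of 8 listed genes above the minimum. Myc was at 258 CPM in Ctrl against 189 CPM in iKO at day 0, and at 80.5 and 48.9 CPM at day 3. It was 3.21-fold lower at day 3 in Ctrl (3.03 to 3.40) and 3.87-fold lower in iKO (3.60 to 4.16). In iKO at day 3, Odc1 was at 307 CPM and Myc at its lowest level of the 4 libraries. A link between the levels of Myc and Odc1 was not tested. Mycl was 2.41-fold lower in iKO at day 3 (2.25 to 2.58), and Mycn was at 2.39 CPM in Ctrl against 0.318 CPM in iKO. Of the family's repressors, Mxd4 was 2.51-fold higher in iKO at day 0 (2.23 to 2.82) and Mxd3 1.87-fold lower (1.66 to 2.10). The day 0 log2 ratios of Mxd1 and Mxi1 were 0.78 and -0.02. At day 3 those of Mxd4, Mxd1, Mxd3 and Mxi1 were 0.43, -0.37, -0.41 and -0.70. Of the 8 genes, 1 was higher and none lower in iKO at day 0, where 2.67% and 0.331% of all genes were. At day 3, none was higher and 2 were lower, where 6.27% and 4.76% of all genes were.

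The 4 genes through which spermidine serves the translation factor eIF5A had log2 ratios below 0 in iKO at day 0 (median -0.39), with none called, where 43.5% of all genes lay above 0. That of Eif5a2 was -0.03 with an interval of its CPM ratio that holds 1 (0.890 to 1.08), and its deposited FPKM was higher in iKO (8.77 against 8.11). From day 0 to day 3, 3 of the 4 were at least 2-fold lower in Ctrl and 1 in iKO, against 15.1% and 11.4% of all genes. All 4 lay below 0 in both genotypes, with medians of -1.15 in Ctrl and -0.64 in iKO. Eif5a itself was at 1349 CPM in Ctrl against 923 CPM in iKO at day 0, and at 276 and 235 CPM at day 3. In methionine salvage, Mtap recycles the by-product of Srm and Sms. It was 3.91-fold lower at day 3 in Ctrl (3.59 to 4.25) and 2.76-fold lower in iKO (2.52 to 3.03). Mat2a, which makes S-adenosylmethionine, was 1.59-fold higher at day 3 in Ctrl (1.54 to 1.64) and 2.53-fold higher in iKO (2.46 to 2.60). Ahcy was at 52.2 CPM in Ctrl against 4.73 CPM in iKO at day 0, but it has copies elsewhere in the genome and its counts are uncertain. Of the other users of arginine, Gatm, the first enzyme of creatine synthesis, was 3.49-fold higher at day 3 in Ctrl (3.37 to 3.61) and 4.18-fold higher in iKO (4.03 to 4.33), with log2 ratios between genotypes of -0.20 at day 0 and 0.06 at day 3. The nitric oxide synthase genes Nos1, Nos2 and Nos3 each had a mean under 1 CPM.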
